A study of Mus musculus with 30 samples.

Results

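The 7 genes described here are Socs1, Socs2, Socs3, Cish, Stat3, Osmr and Lifr, a set built around the transcription factor STAT3, the receptors that feed it and the SOCS proteins that restrain it. The rule that picks them uses gene symbols and no measured value, but the set was chosen with earlier results of these data known. Every probe set annotated to 1 of these symbols and to no other gene was taken, which gave 17 of 31563 such probe sets and 7 of 17782 genes. Socs1 and Cish had 1 probe set each, Stat3 had 2, Socs3, Osmr and Lifr had 3 each and Socs2 had 4. All 7 genes were measured in every sample, and no filter on low values was applied.

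Kidney and skeletal muscle of 15 mice aged 6 weeks were profiled on Affymetrix Mouse Genome 430 2.0 arrays, with 1 array per tissue and animal. In each tissue there were 4 Kif3aΔTub mice given sActRIIB-Fc (mutant trap), 4 Kif3aΔTub mice given PBS (mutant PBS), 4 wild-type mice given sActRIIB-Fc (WT trap) and 3 wild-type mice given PBS (WT PBS). Kif3aΔTub mice carry the genotype label Kif3aKSPCre: the cilium motor gene Kif3a is deleted where a kidney-specific cadherin (KSP) promoter drives Cre, so the deletion is directed to kidney tubules. sActRIIB-Fc is a soluble form of the activin receptor type IIB that binds activin A and other ligands of that receptor, and it was given at 10 mg/kg into the peritoneum; the labels do not say which muscle was taken.

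Cytokines of the interleukin 6 family bind receptors that pair with the shared chain gp130, and the JAK kinases on those receptors phosphorylate STAT3, which enters the nucleus and switches on, among other genes, Socs3. SOCS3 protein binds gp130 and the JAK kinases and shuts the signal down, so Socs3 mRNA is widely used as a readout of STAT3 activity. CISH and SOCS2 do the same for growth hormone and other cytokines that act through STAT5, and SOCS1 for interferons; in wasting muscle the gp130 and STAT3 route is known as a driver of protein loss.

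Array medians lay between 6.09 and 6.24 in kidney and between 5.94 and 6.06 in muscle, in log2 units. In WT PBS mice all 9 measured kidney markers were higher and all 10 muscle markers lower in kidney than in muscle. Kif3a itself read 7.22 to 7.48 in mutant PBS kidneys, against 7.76 to 7.89 in WT PBS kidneys, a difference of -0.50 ± 0.15 (SE, limma adjusted p = 0.011). Under the trap it read 7.37 to 8.0 in mutant kidneys, against 7.34 to 7.84 in WT kidneys, a difference of -0.02 ± 0.14 (adjusted p = 0.905), so this signal does not separate the genotypes there; whether its probes lie in the deleted part is not given. Because whole tissue was measured, fewer cells of a type and less RNA per cell cannot be told apart in any value below.

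In the mutant kidney Socs3, Osmr and Stat3 rose, under PBS and under the trap alike, and none of them was called between trap and PBS. Socs3 was 30.7-fold, Osmr 8.0-fold and Stat3 3.45-fold higher in mutant PBS than in WT PBS kidneys, while Socs1, Socs2, Cish and the brightest probe set of Lifr did not pass the test. Of all 17782 genes 51.6% were called in this comparison and 24.9% were called higher. So 3 of 7 called is not a large share for this tissue, though all 3 were higher. The size of the Socs3 change was large, with only 4 genes rising more. That rank and the 30.7-fold rest on the brightest Socs3 probe set, 1455899_x_at, and 1416576_at gave a smaller rise, 3.37 on the log2 scale. With each array centred on its median, 3842 genes were called higher and 6531 lower, in place of 4420 and 4754.

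Socs3, the STAT3-induced inhibitor of gp130 signalling, had log2 signals of 10.68, 10.00, 10.73 and 10.52 in mutant PBS kidneys, against 5.55, 5.06 and 6.01 in WT PBS kidneys. Under the trap it read 9.65, 10.40, 10.48 and 10.09 in mutant kidneys, against 5.86, 6.17, 5.54 and 5.33 in WT kidneys. Every mutant array lay more than 3 log2 units above every WT array, and the trap and PBS groups of each genotype overlapped. The change was 4.94 ± 0.26 under PBS (log2, SE, adjusted p = 1.53e-09, limma) and 4.43 ± 0.24 under the trap (adjusted p = 5.9e-09). The other Socs3 probe sets gave 4.88 ± 0.24 and 3.37 ± 0.18 under PBS, so all 3 rose, by different amounts. The 2 brightest Socs3 probe sets carry the suffix _x_at, which marks probe sets with probes that can match other transcripts; the third, 1416576_at, does not carry it and gave the smallest of these changes.

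The Socs3 sequence is shown because STAT factors recognise a short inverted repeat, spelled TTCNNNGAA when searched here on both strands. Of the 250 bases before each RefSeq start, 6 of the 7 genes had an entry (Lifr with 2 starts), and Socs3 alone held a match, at 154 to 146 bases before the start. The match is in capitals, with 10 flanking bases on each side, at chr11:117969502-117969530 on the minus strand of GRCm38.p6.

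Socs3 upstream match: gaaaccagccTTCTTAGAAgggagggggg

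The same letters occurred in 7.02% of 32851 RefSeq windows of that length. The Socs3 window lies wholly inside the annotated span of the gene, which begins further upstream. A match of letters is a description and says nothing about binding.

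**Figure D1:**
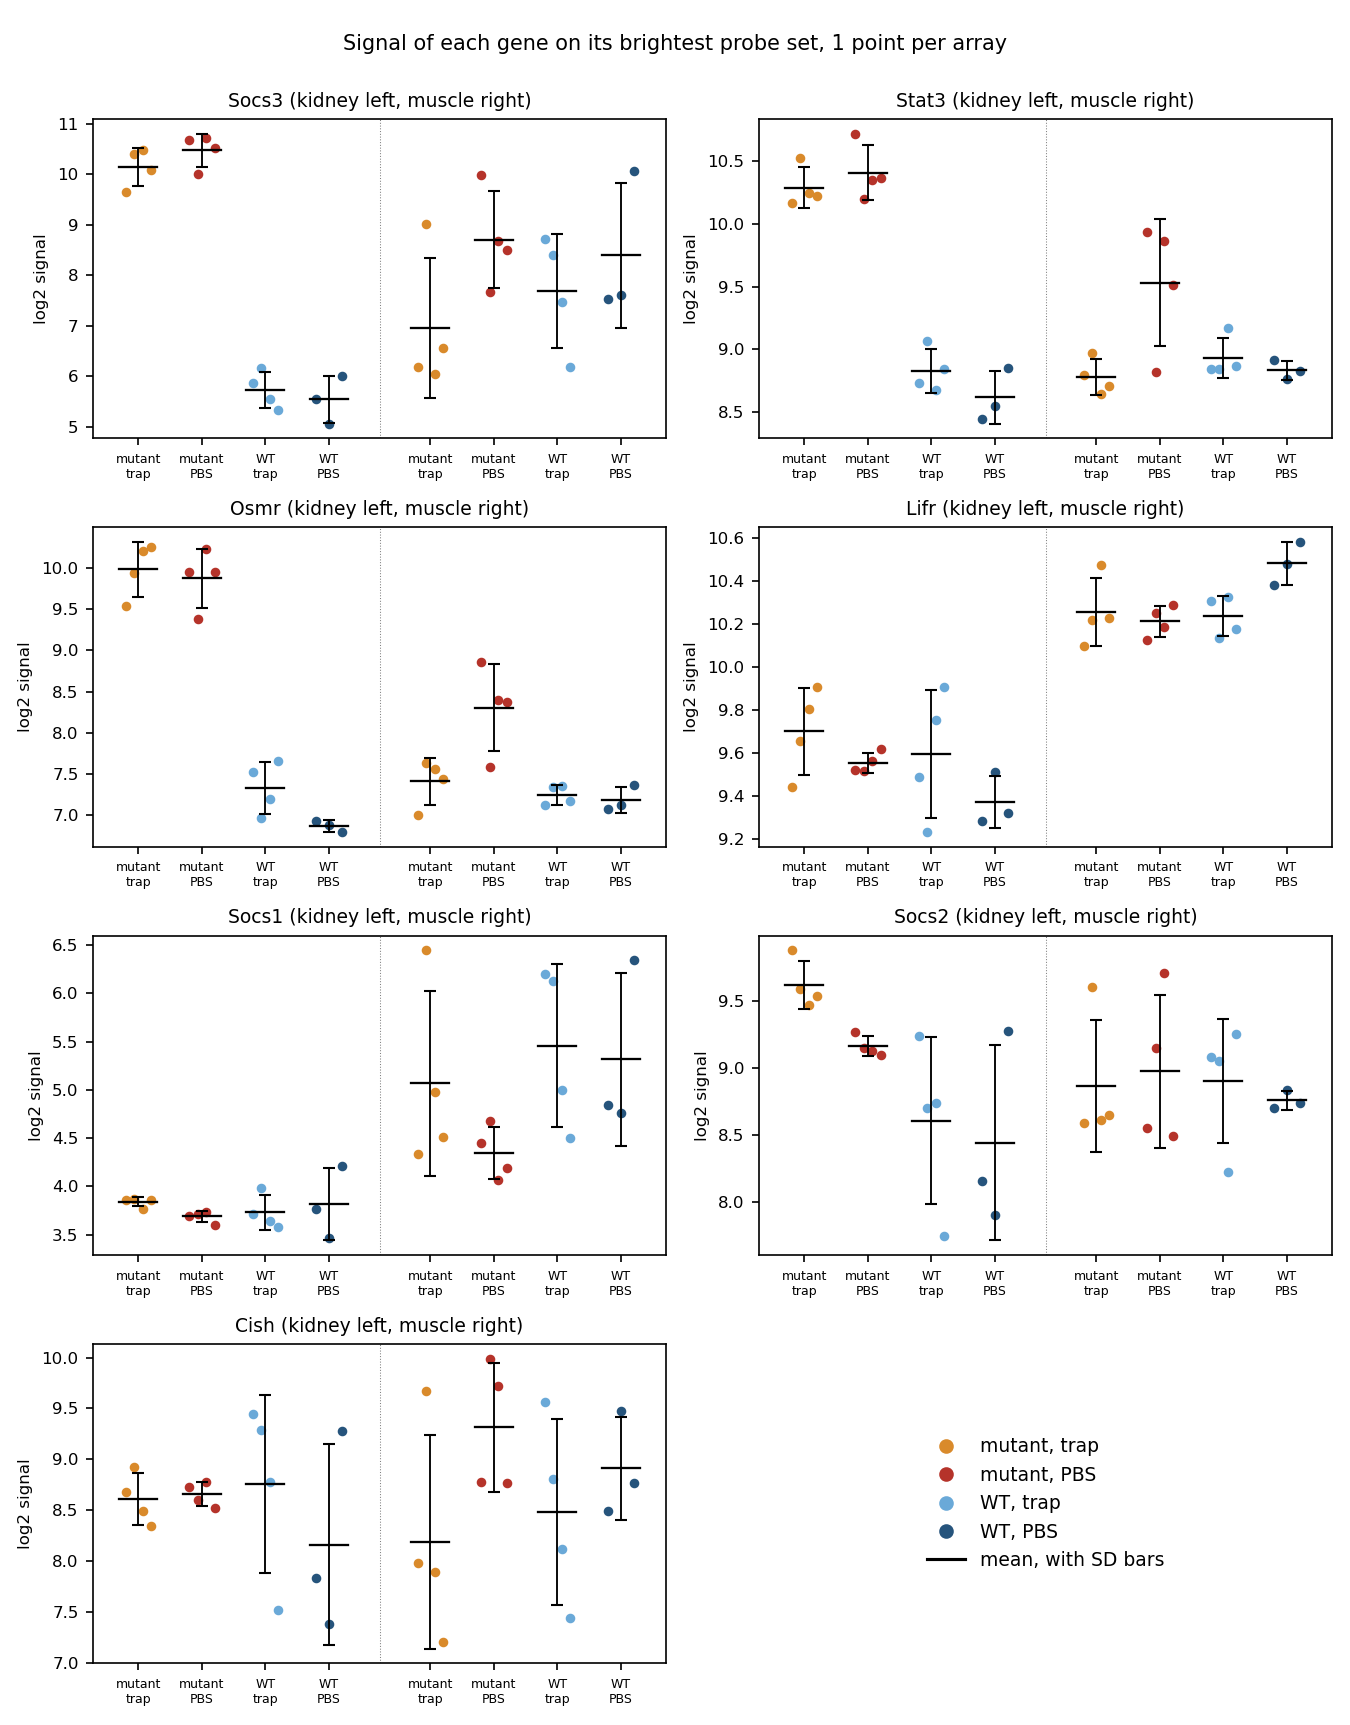
Log2 signal (y axis) of each of the 7 genes on its brightest probe set in the 4 kidney groups (left of the dotted line) and the 4 muscle groups (right), 1 point per array, with the mean as a line and the SD as bars; y axes differ between panels. In kidney the mutant arrays of Socs3 lie between 9.65 and 10.73 and the WT arrays between 5.06 and 6.17, while in muscle the groups of Socs3 overlap and Osmr and Stat3 are high in the mutant PBS group.

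Osmr, the receptor subunit that joins gp130 to bind oncostatin M, read 9.94, 9.38, 10.23 and 9.94 in mutant PBS kidneys, against 6.93, 6.88 and 6.80 in WT PBS kidneys. Under the trap the values were 9.53, 9.94, 10.20 and 10.25 in mutant kidneys, against 7.52, 6.96, 7.20 and 7.66 in WT kidneys. Again the mutant arrays lay above all WT arrays, with no overlap. Osmr rose by 3.00 ± 0.21 under PBS (adjusted p = 2.24e-08) and by 2.65 ± 0.19 under the trap (adjusted p = 7.1e-08), on the log2 scale. Its dimmer probe sets rose less under PBS, 1418675_at by 1.58 ± 0.14 (adjusted p = 2.1e-07) and 1459217_at by 0.35 ± 0.10 (adjusted p = 0.0115). Under the trap 1418675_at rose by 1.44 ± 0.13, while 1459217_at gave 0.05 ± 0.10 (adjusted p = 0.676) and its arrays overlapped. The kidney group means of 1459217_at, 3.86 to 4.23, lay below 4.37, the lowest 25th percentile of the kidney arrays.

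Stat3, the transcription factor itself, read 10.72, 10.20, 10.35 and 10.36 in mutant PBS kidneys, against 8.45, 8.55 and 8.85 in WT PBS kidneys. Under the trap it read 10.17, 10.53, 10.24 and 10.22 in mutant kidneys, against 8.73, 9.07, 8.68 and 8.85 in WT kidneys. The genotypes were separated by more than 1 log2 unit in both treatments. The rise was 1.79 ± 0.14 under PBS (adjusted p = 7.93e-08) and 1.46 ± 0.13 under the trap (adjusted p = 4.54e-07), and the second Stat3 probe set gave 1.71 ± 0.13 under PBS.

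Lifr, which pairs with gp130 as the receptor for leukaemia inhibitory factor, gave different answers on its probe sets. The brightest, 1454984_at, read 9.52, 9.52, 9.56 and 9.62 in mutant PBS kidneys, against 9.29, 9.51 and 9.32 in WT PBS kidneys, a difference of 0.18 ± 0.14 (adjusted p = 0.299). All its mutant PBS arrays lay above its WT PBS arrays, though the nearest were 9.52 and 9.51. Probe set 1425107_a_at read 6.46, 6.76, 6.56 and 6.71 in mutant PBS kidneys, against 8.10, 8.20 and 8.30 in WT PBS kidneys. The mutant arrays of that probe set lay well below the WT arrays, with no overlap. It fell by 1.58 ± 0.15 on the log2 scale (adjusted p = 6.72e-07 in the fit of all probe sets, where 49.3% were called), and under the trap it fell by 1.31 (adjusted p = 3.16e-06, with 42.4% of probe sets called). The dimmest, 1450207_at, read 5.30, 5.25, 5.23 and 5.19 in mutant PBS kidneys, against 5.67, 5.69 and 5.65 in WT PBS kidneys, and also fell, by 0.43 ± 0.09 (adjusted p = 0.0008). The mean of the 3 probe sets was 0.61 lower in mutant PBS kidneys (adjusted p = 5.33e-05), so the call for Lifr depends on which probe set is read. Which transcripts the probe sets cover was not analysed here.

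**Figure D2:**
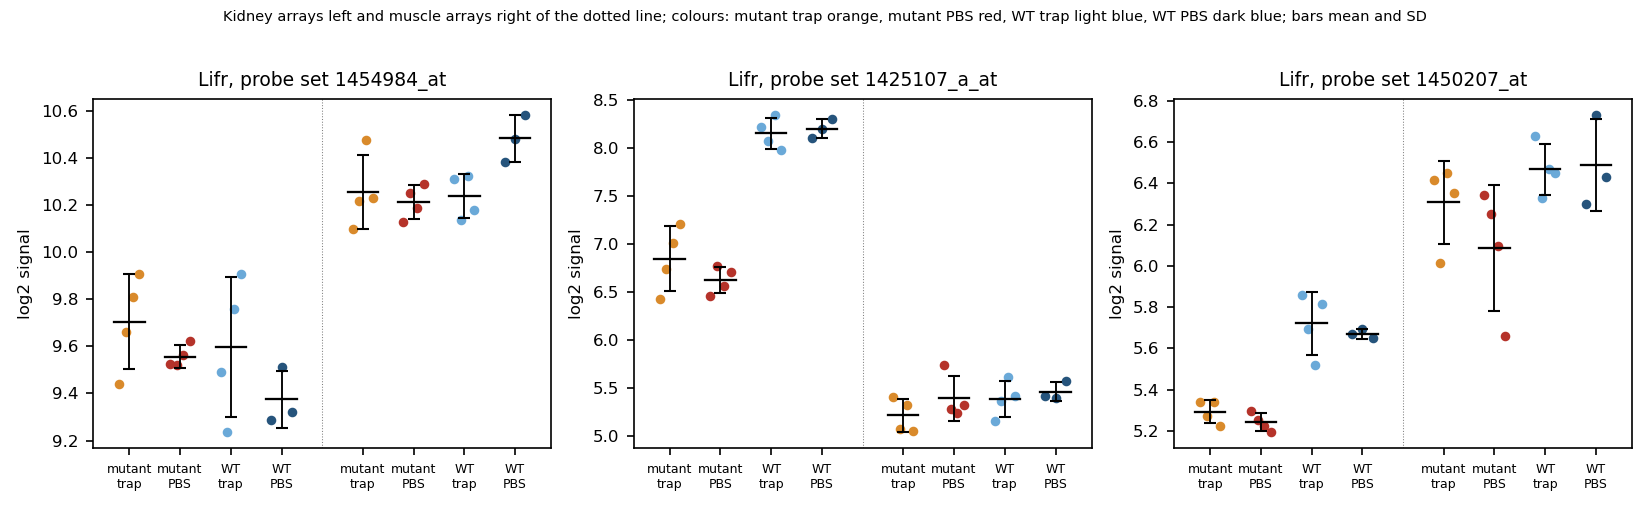
Log2 signal (y axis) of the 3 Lifr probe sets in the 4 kidney groups (left of the dotted line) and the 4 muscle groups (right), 1 point per array, with means and SD bars; y axes differ between panels. In kidney 1425107_a_at and 1450207_at are lower in mutants, by 1.58 and 0.43 log2 units under PBS, while 1454984_at differs by 0.18; across tissues 1425107_a_at is higher in kidney and the other probe sets are higher in muscle.

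The remaining SOCS genes had no call in the mutant kidney under PBS. Socs2, an inhibitor of growth hormone signalling, read 9.27, 9.15, 9.13 and 9.10 in mutant PBS kidneys, against 8.16, 7.91 and 9.27 in WT PBS kidneys. Cish, a STAT5-induced relative, read 8.73, 8.60, 8.78 and 8.52 in mutant PBS kidneys, against 7.83, 7.38 and 9.27 in WT PBS kidneys. In both genes WT PBS replicate 3 stood above the mutant arrays or level with the highest of them, and the other WT PBS arrays stood below all of them. The differences were 0.72 ± 0.31 for Socs2 (adjusted p = 0.0625) and 0.50 ± 0.42 for Cish (adjusted p = 0.335). Without that replicate both passed, at 1.13 for Socs2 (adjusted p = 0.0039) and 1.05 for Cish (adjusted p = 0.0366), and 5 of the 7 genes were called. The count over all genes for that setting is not given here. Across the settings compared over all genes it ran from 7518 to 11072, beside 9174 in the main fit.

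Under the trap 4 of the 7 genes were higher in mutant kidneys, the fourth being Socs2, where 46.4% of all genes were called and 22.2% were higher. Socs2 read 9.88, 9.59, 9.47 and 9.53 in mutant trap kidneys, against 9.24, 8.70, 8.74 and 7.75 in WT trap kidneys. Every mutant trap array was above every WT trap array, and the difference was 1.01 ± 0.28 (adjusted p = 0.00889). Cish read 8.68, 8.93, 8.49 and 8.34 in mutant trap kidneys, against 9.44, 9.29, 8.78 and 7.52 in WT trap kidneys, with the mutant values inside the WT range. Socs1, the interferon feedback inhibitor, was dim in kidney: its 15 values ran from 3.47 to 4.21, below the lowest of the arrays' 25th percentiles, 4.37. It differed by -0.13 ± 0.14 between mutant PBS and WT PBS kidneys (adjusted p = 0.456), a range in which a low signal limits what could be seen.

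Between trap and PBS none of the 7 genes was called in mutant kidneys, where 2.4% of all genes were called. None was called in WT kidneys either, where 0.877% of all genes were. At an unadjusted p under 0.05 limma gave 0 genes in mutants and 1 in WT. The latter was Osmr, at 0.46 ± 0.21 (adjusted p = 0.35). Its WT trap arrays, 6.96 to 7.66, all lay above its WT PBS arrays, 6.80 to 6.93. So did those of the second Stat3 probe set, at 8.77 to 9.09 against 8.49 to 8.76. In mutants the largest differences between trap and PBS were 0.46 for Socs2 and -0.33 ± 0.24 for Socs3 (adjusted p = 0.6). All 4 mutant trap arrays of the brightest Socs2 probe set lay above all 4 mutant PBS arrays, and in the fit of all probe sets Socs2 1438470_at was called at 0.54 ± 0.13 (adjusted p = 0.0482, with 1.61% of probe sets called), with 5.24, 5.43, 5.37 and 5.42 in mutant trap kidneys against 4.95, 4.68, 5.10 and 4.57 in mutant PBS kidneys. The interaction of genotype and trap was called for 0 of the 7 genes in kidney, with 0 at an unadjusted p under 0.05 and 1.38% of all genes called. For Socs3 it was -0.51 on the log2 scale.

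**Figure D3:**
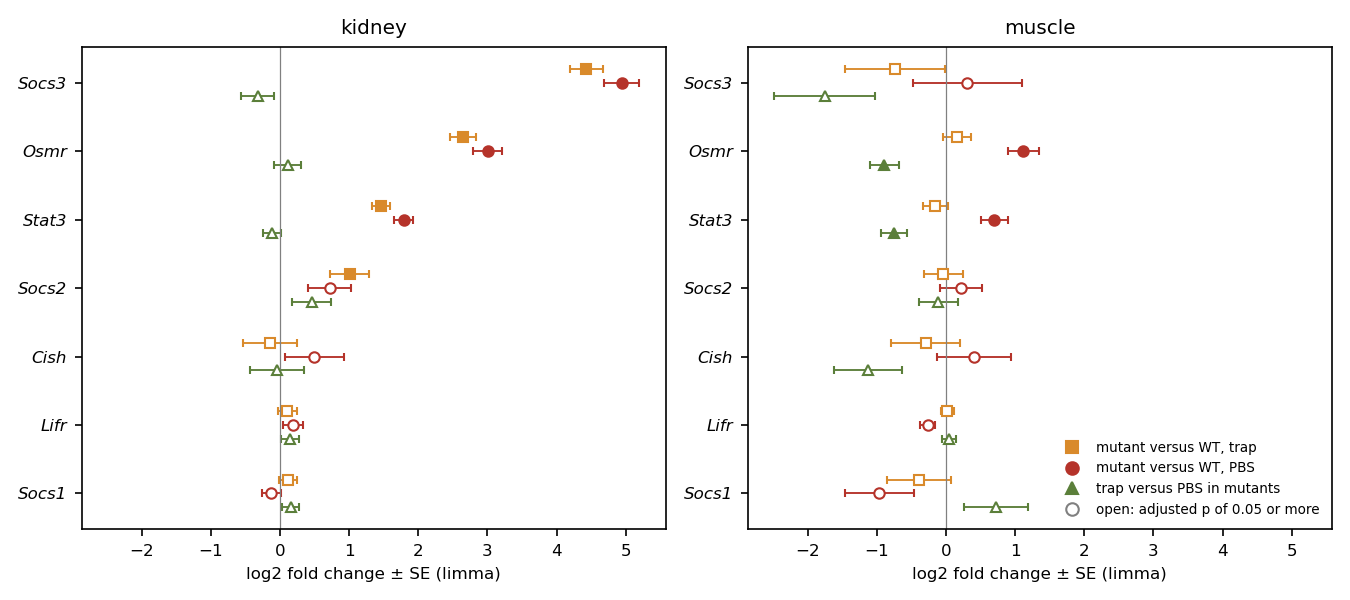
Log2 fold change ± SE (x axis) of each of the 7 genes in kidney (left) and muscle (right) for mutant over WT under the trap, mutant over WT under PBS, and trap over PBS in mutants; filled symbols have a limma adjusted p under 0.05. In kidney Socs3, Osmr and Stat3 are higher in mutants under both treatments, at 4.94, 3.00 and 1.79 under PBS, and in muscle Osmr and Stat3 are higher under PBS and lower with the trap.

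Other genes of the pathway in the kidney were read from lists made for this account. Their counts stand beside 51.6% of all genes called and 24.9% called higher between mutant PBS and WT PBS kidneys, so that 4 of 8 or 4 of 9 called is no more than the tissue as a whole. Of 8 measured gp130 family ligands 4 were higher in mutant PBS kidneys and 0 lower: Clcf1, a ligand of the ciliary neurotrophic factor receptor, rose by 3.68 ± 0.23, interleukin 6 (Il6) by 2.70 ± 0.64, Lif by 1.39 ± 0.27 and Ebi3, a subunit of interleukin 27, by 0.75 ± 0.15. Il6 was uneven, from 3.78 to 7.5 in mutant PBS kidneys, against 2.70 to 2.82 in WT PBS kidneys. Osm, the ligand of Osmr, was not among the ligands called. Of 5 other receptors of the family, 2 rose, the interleukin 6 receptor Il6ra by 1.79 ± 0.19 and the gp130 gene Il6st by 1.34 ± 0.11, and 1 fell, Il31ra by 0.32 ± 0.11. Of 9 JAK and STAT genes other than Stat3, 3 rose (Jak3, Tyk2 and Stat6, by 0.33 to 0.46) and Stat5a fell by 0.48 ± 0.15.

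Of 15 other feedback genes, 6 were higher and 0 lower in mutant PBS kidneys, against 51.6% of all genes called and 24.9% called higher. They were led by the leukocyte phosphatase Ptprc at 2.15 ± 0.22, the JAK phosphatase Ptpn1 at 0.88 ± 0.12 and Pias3, an inhibitor of STAT3, at 0.77 ± 0.13. Of 30 genes listed as STAT3 targets, 22 were higher and 2 lower, with a median change of 1.60 beside -0.08 over all genes. Lcn2, the tubule injury marker lipocalin 2, rose by 8.12 ± 0.23, Timp1 by 4.62 ± 0.46 and Cp by 3.87 ± 0.16, while Vegfa fell by 0.83 ± 0.15 and Gfap by 0.56 ± 0.09. The list was chosen with earlier results of these data known, so its count is a description and no independent support. Many of its genes answer to other factors too. Of 11 growth hormone and STAT5 genes 3 rose and 3 fell; the growth hormone receptor Ghr fell by 1.94 ± 0.18 and the cytokine receptor chain Csf2rb rose by 2.94 ± 0.19. Of 11 interferon gamma response genes, which SOCS1 restrains, 9 were higher, with Psmb8 at 1.69 ± 0.17 and Gbp2 at 1.65 ± 0.18.

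Some lists of cell type markers moved with genotype in the kidney as well. Between mutant PBS and WT PBS kidneys 51.6% of all genes were called and 24.9% were called higher. All 12 macrophage markers were higher in mutant PBS kidneys, with a log2 summed signal of 13.9 to 14.4 against 10.8 to 11 in WT PBS kidneys. Of 8 fibroblast markers 7 were higher, with sums of 14.1 to 14.7 against 12 to 12.5, and of 9 kidney markers 7 were lower and 2 higher. Neutrophil markers summed to 8.23 to 9.63 in mutant PBS kidneys, against 7.95 to 8.10 in WT PBS kidneys, with 2 of 8 higher and 1 lower. Of 7 T cell markers 1 was higher and 1 lower, and of 8 endothelial markers 2 were higher and 0 lower. Neutrophil, T cell and endothelial markers were thus called no more often than all genes. Array signals have no zero, so no marker can be called absent. The part of these cells in the rise of Socs3, Osmr and Stat3 was not tested.

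**Figure D4:**
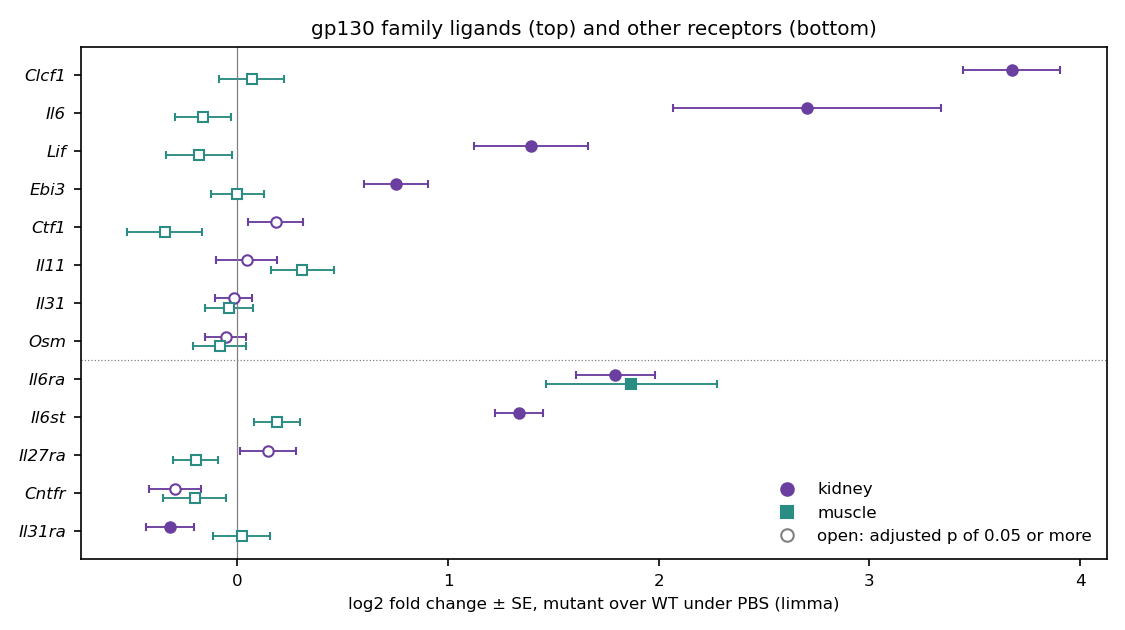
Log2 fold change ± SE (x axis) between mutant PBS and WT PBS mice for the 8 measured gp130 family ligands (top) and 5 other receptors of the family (bottom), in kidney (circles) and muscle (squares); filled symbols have a limma adjusted p under 0.05. In kidney 4 ligands and 2 receptors are called higher and Il31ra lower, and in muscle Il6ra alone is called, at 1.87.

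In muscle, Osmr and Stat3 were the 2 genes of the 7 called between mutant PBS and WT PBS mice, both higher, where 16% of all genes were called and 6.93% were higher. Osmr read 8.85, 7.59, 8.40 and 8.38 in mutant PBS muscles, against 7.07, 7.12 and 7.36 in WT PBS muscles. All mutant PBS arrays lay above the WT PBS arrays, with replicate 2 the nearest to them. The difference was 1.12 ± 0.22 on the log2 scale (adjusted p = 0.00288); the next Osmr probe set gave 0.58 ± 0.21 (adjusted p = 0.08, in the fit of all probe sets, where 15.4% were called) and was not called.

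Stat3 read 9.93, 8.82, 9.86 and 9.51 in mutant PBS muscles, against 8.91, 8.76 and 8.83 in WT PBS muscles. The groups overlapped, because mutant PBS replicate 2 sat among the WT PBS arrays while the other mutant PBS arrays sat above them. The difference was 0.70 ± 0.20 (adjusted p = 0.0257), and the second Stat3 probe set, at 0.50 ± 0.19, was not called (adjusted p = 0.0861). Stat3 lost its call when any of 5 single arrays was left out: its change was 0.56 without mutant PBS replicate 1, 0.59 without mutant PBS replicate 3, and 0.66 to 0.74 without each of the WT PBS replicates.

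Control signals also differed between these muscles. The 18S ribosomal RNA control read 12.98 to 13.49 in mutant PBS muscles, against 13.53 to 13.62 in WT PBS muscles, and the 3′ minus 5′ signal of the actin control was -0.06 to 0.14 against 0.16 to 0.18. With 18S as a covariate the changes were 0.67 for Osmr (adjusted p = 0.26) and 0.43 for Stat3 (adjusted p = 0.502). With the actin signal they were 0.94 for Osmr (adjusted p = 0.0273) and 0.60 for Stat3 (adjusted p = 0.131). In kidney the 2 covariates left Socs3 at 4.93 and 4.83, Osmr at 3.03 and 2.88 and Stat3 at 1.78 and 1.71 between mutant PBS and WT PBS mice, all called.

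Socs3 varied widely within the muscle groups. It read 10.00, 7.67, 8.68 and 8.50 in mutant PBS muscles, against 7.54, 7.61 and 10.06 in WT PBS muscles. The highest muscle array was a wild-type one, WT PBS replicate 3, and the groups overlapped over their whole range. The difference was 0.31 ± 0.79 (adjusted p = 0.845), and 1.14 without WT PBS replicate 3. Socs1 read 4.45, 4.68, 4.07 and 4.19 in mutant PBS muscles, against 4.84, 4.76 and 6.34 in WT PBS muscles, a difference of -0.97 ± 0.50 (adjusted p = 0.217). All mutant PBS arrays of Socs1 were below the WT PBS arrays, and WT PBS replicate 3 was again the highest. Lifr differed by -0.27 ± 0.10 (adjusted p = 0.0951), Cish by 0.40 ± 0.53 and Socs2 by 0.22 ± 0.30, none of them called.

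The trap lowered Osmr and Stat3 in mutant muscle, the 2 genes of the 7 that were called between mutant trap and mutant PBS muscles, where 6.33% of all genes were called and 2.15% were lower. Osmr read 7.0, 7.64, 7.57 and 7.44 in mutant trap muscles, against 8.85, 7.59, 8.40 and 8.38 in mutant PBS muscles. Mutant PBS replicate 2 lay inside the mutant trap range and the other mutant PBS arrays lay above it. Stat3 read 8.80, 8.97, 8.64 and 8.71 in mutant trap muscles, against 9.93, 8.82, 9.86 and 9.51 in mutant PBS muscles, with the same replicate overlapping. Osmr fell by 0.89 ± 0.20 (adjusted p = 0.0181) and Stat3 by 0.75 ± 0.18 (adjusted p = 0.0253), on the log2 scale. Their other probe sets were not called in the fit of all probe sets, where 6.13% were: 1418675_at and 1459217_at of Osmr gave -0.29 (adjusted p = 0.448) and 0.07 (adjusted p = 0.792), and 1460700_at of Stat3 gave -0.60 (adjusted p = 0.054). The mean of the Osmr probe sets was -0.37 and not called (adjusted p = 0.101). This comparison and the one between genotypes share the 4 mutant PBS arrays, so their opposite signs are not independent of each other. Neither gene was called with 18S as a covariate, at -0.46 for Osmr (adjusted p = 0.643) and -0.50 for Stat3 (adjusted p = 0.59), or with the actin signal, at -0.73 for Osmr (adjusted p = 0.125) and -0.66 for Stat3 (adjusted p = 0.143). Without mutant PBS replicate 1 neither was called, at -0.71 for Osmr (adjusted p = 0.0556) and -0.62 for Stat3 (adjusted p = 0.0838). Osmr also lost its call without mutant trap replicate 1, at -0.75 (adjusted p = 0.0509), and Stat3 without mutant trap replicate 3 or 4 or mutant PBS replicate 3 or 4, at -0.64 to -0.76.

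Socs3 read 6.19, 9.01, 6.04 and 6.57 in mutant trap muscles, and 3 of these arrays were below every mutant PBS array. Replicate 2 of the mutant trap group stood apart at 9.01, and the difference between trap and PBS in mutants, -1.76 ± 0.73, did not pass (adjusted p = 0.169). Cish read 7.98, 9.67, 7.89 and 7.20 in mutant trap muscles, against 8.78, 9.99, 9.73 and 8.77 in mutant PBS muscles, with the same trap array high. Its difference was -1.13 ± 0.49 (adjusted p = 0.193), and without mutant trap replicate 2 it was -1.62 (adjusted p = 0.0495).

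Between mutant and WT muscles that both had the trap, 0 of the 7 genes were called, with 0 at an unadjusted p under 0.05 by limma and 1.66% of all genes called. Osmr read 7.12, 7.35, 7.36 and 7.18 in WT trap muscles and Stat3 read 8.85, 8.84, 9.17 and 8.87, and the mutant trap arrays overlapped both. The differences were 0.16 for Osmr and -0.15 for Stat3. Between trap and PBS in WT muscle 0 of the 7 genes were called, with 1 at an unadjusted p under 0.05 and 0.0619% of all genes called. That gene was Lifr, at -0.24 ± 0.10 (adjusted p = 0.394). The interaction of genotype and trap in muscle was -0.96 ± 0.30 for Osmr (adjusted p = 0.189) and -0.85 ± 0.27 for Stat3 (adjusted p = 0.195); these were the 2 genes under an unadjusted p of 0.05, 0 passed the adjusted threshold, and 0.169% of all genes did. Without mutant PBS replicate 2 both passed, at -1.19 for Osmr (adjusted p = 0.0127) and -1.09 for Stat3 (adjusted p = 0.00794).

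Other pathway genes were read from the same lists in muscle. Of the 8 gp130 family ligands 0 were called in mutant PBS muscle. Il6ra alone of the 5 receptors was called, higher by 1.87 ± 0.41 (adjusted p = 0.00557), with 7.13 to 9.43 in mutant PBS muscles against 5.89 to 6.49 in WT PBS muscles. With the trap it fell by 1.48 ± 0.38 in mutants (adjusted p = 0.0294). Of the 30 listed STAT3 targets 5 were higher and 2 lower, where 16% of all genes were called and 6.93% were higher: the transcription factor Cebpd, a mediator of muscle wasting in mice, rose by 2.96 ± 0.44, Lcn2 by 2.46 ± 0.63, Lrg1 by 1.26 ± 0.16 and Cebpb by 1.04 ± 0.22, while Ccnd1 fell by 1.19 ± 0.31 and Bcl6 by 0.94 ± 0.23. In mutants the trap lowered 4 of the 30 and raised 1, where 6.33% of all genes were called and 2.15% were lower, with Lcn2 at -2.52 ± 0.58, Cebpd at -1.66 ± 0.40 and Bcl6 at 0.77 ± 0.21. Of the 11 growth hormone and STAT5 genes, 3 were higher and 2 lower in mutant PBS muscle: the growth factor Igf1 fell by 2.03 ± 0.25 and its binding protein Igfbp3 rose by 1.64 ± 0.33, and with the trap Igf1 rose by 1.53 ± 0.23 and Igfbp3 fell by 1.52 ± 0.30 in mutants. Of the 11 interferon gamma response genes 3 were lower (Cxcl9, Gbp2 and Ifngr2, by 1.02 to 1.74) and 0 higher.

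Among the immune and stromal marker lists, fibroblast markers differed most between the muscles. Between mutant PBS and WT PBS muscles 16% of all genes were called and 6.93% were called higher. Of 12 macrophage markers 3 were lower and 0 higher in mutant PBS muscles. Their log2 summed signals overlapped, at 10.6 to 12.1 against 11.4 to 11.8 in WT PBS muscles. Of 8 fibroblast markers 7 were lower, with sums of 12.7 to 13.3 against 14.8 to 14.9. In mutants, where 6.33% of all genes were called with the trap, it raised 5 of the 8, to sums of 13.8 to 14.2. Of 8 neutrophil markers 1 was higher, with sums of 8.73 to 9.08 against 8.34 to 8.54. Of 7 T cell markers 1 was lower and 0 higher, as were 1 and 0 of 8 endothelial markers. Neutrophil, T cell and endothelial markers were thus called no more often than all genes. The part of these cells in the muscle values of Osmr and Stat3 was not tested.

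The kidney effect of the mutation minus its muscle effect was called above 0 for 4 of the 7 genes, where the difference between tissues was called for 37.2% of all genes and called above 0 for 19.7%. The kidney effect minus the muscle effect was 4.63 ± 0.85 for Socs3 (adjusted p = 7.1e-05), 1.88 ± 0.30 for Osmr (adjusted p = 1.14e-05), 1.09 ± 0.24 for Stat3 (adjusted p = 0.000629) and 0.45 ± 0.17 for Lifr (adjusted p = 0.0358). For Lifr neither tissue's own effect was called, at 0.18 in kidney and -0.27 in muscle, so its difference is not a larger rise in kidney. The Lifr value again rested on its brightest probe set and was -0.36 with the mean of its probe sets; it also lost the call when any 1 of 8 arrays was left out, at 0.40 to 0.46. Socs1, Socs2 and Cish were not called. In the fit of all probe sets, where 35.1% were called, Lifr 1425107_a_at gave -1.51.

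The wild-type tissues started from different levels. Between kidney and muscle of WT PBS mice 3 of the 7 genes were called, all lower in kidney, where 64.6% of all genes were called, 36.1% as lower, and the median over all genes was -0.13. Socs3 was lower in kidney by 2.86 ± 0.64 on the log2 scale, Socs1 by 1.5 ± 0.40 and Lifr by 1.11 ± 0.13, while Lifr probe set 1425107_a_at was 2.74 higher in kidney. The order of the 8 groups for Socs3 therefore ran from mutant PBS kidney at 10.48, mutant trap kidney at 10.16, mutant PBS muscle at 8.71, WT PBS muscle at 8.40, WT trap muscle at 7.69 and mutant trap muscle at 6.95 to WT trap kidney at 5.73 and WT PBS kidney at 5.54. Each group in that order overlapped the next. Osmr and Stat3 had both mutant kidney groups highest, at 9.98 and 9.87 for Osmr with the trap and PBS, and 10.29 and 10.41 for Stat3 with the trap and PBS, followed in both genes by mutant PBS muscle at 8.30 and 9.53; a gap with no overlap lay between the mutant kidneys and mutant PBS muscle. Cish, from 9.31 in mutant PBS muscle to 8.16 in WT PBS kidney, had no gap anywhere in its order. The means of Socs1 were higher in all 4 muscle groups than in the 4 kidney groups, from 4.35 in mutant PBS muscle up and from 3.84 in mutant trap kidney down. The tissues were not separated array by array, since WT PBS kidney reached 4.21 and mutant PBS muscle went down to 4.07.

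Some animals were high or low in several of these genes at once. WT PBS replicate 3 had the highest Cish, Socs2 and Socs3 of its group in kidney and the highest Socs3 and Socs1 of its group in muscle, and both arrays came from the same animal. WT trap replicate 4, also 1 animal, had the lowest Cish of its group in both tissues, at 7.52 in kidney and 7.44 in muscle. Over the deviations of the 15 arrays of a tissue from their group means, Socs2 and Cish correlated at Pearson r = 0.94 in kidney (exact within-group permutation p = 0.00486; Spearman rho = 0.857, p = 0.00928), and at 0.854 without the 2 farthest arrays. In muscle Socs1 and Socs3 correlated at r = 0.839 (exact permutation p = 0.00646; rho = 0.693), and at 0.682 without the 2 farthest. Of the 49 such relations examined, none passed after Benjamini-Hochberg adjustment, where the lowest adjusted p was 0.146.

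The genes whose pattern was most like each of the 7 were sought among 7603 genes that lay above the median level in both tissues, by Pearson r over the 30 arrays after the mean of each tissue was taken off. The arrays share the genotype difference of the kidney, so a high r can be that difference alone. Stat3 was most like Osmr (r = 0.945), then Mideas (0.943) and Ripor1 (0.939). Osmr was most like Rps9 (0.951), Mideas (0.947) and Mcl1 (0.946), and Socs3 was most like Jag1 (0.941), Tnfrsf1a (0.915) and Ctsd (0.910). The likeness was weaker for the others: Cish was most like Rgs3 (0.684), Socs2 like Zfp703 (0.712), Socs1 like Rab34 (0.676) and Lifr like Bms1 (0.71).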

How the data were processed

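Kidney and muscle RNA of 15 mice was measured on 30 Affymetrix arrays. The values were the authors' deposited log2 signals per probe set; the scale was inferred from their range, how they were normalized is not stated in the labels, and they were used unscaled and unfiltered. Per the labels' protocols, tissue was snap-frozen and RNA taken up in QIAZOL. Of 35088 probe sets, 31563 had 1 gene symbol, 825 several and 2700 none listed; the first were used, giving 17782 genes.

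The members and gene lists were chosen with earlier results of these data known. All 7 members were named with every probe set; other list genes were named where called and among the largest changes. Each gene was read from its probe set with the highest mean in the tissue (over all 30 arrays for fits of both tissues). Each tissue was fitted in R 4.3.3 using limma 3.58.1 (1 mean per group, moderated spread), and both tissues together with the animal as a random block (correlation 0.0749). Calls in the 12 comparisons required p under 0.05 after Benjamini-Hochberg adjustment across every gene. Groups came from the labels, and each array of a tissue is a separate animal by its title. Batches are not labelled, and precision is limited by the number of arrays. Alternatives were the probe set rule, filters, normalization, array weights, control signals as covariates, the samples in the fit, a replicate block and leaving out each array. The fit was tested on simulated data in which 200 of 17782 genes changed by 1 log2 unit between mutant and WT under PBS. Of these 90% were recovered in kidney and 86% in muscle. Fewer genes changed there than were called in the data, and the shares are averages over genes of all spreads. They do not apply to a gene with a wide spread, such as Socs3 in muscle. Of 168 list genes 157 were measured. Promoter letters are from RefSeq, GRCm38.p6.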

Additional observations from a re-analysis of the deposited data

Results flagged for a closer look

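Of 102 groups of 4 arrays examined over the 17 probe sets, 11 held 1 array far from the other 3 by Dixon's test, which chance does in about 1 in 20 groups. Mutant trap muscle gave 5 of them, all its highest array, from replicate 2 except for Socs2 1441476_at: Socs2 read 9.60 on 1449109_at, 9.39 on 1418507_s_at and 4.23 on 1441476_at, and Socs3 read 7.81 on 1416576_at and 8.51 on 1456212_x_at. In kidney, Socs2 1418507_s_at was highest at 9.15 in 1 mutant PBS array and at 9.61 in 1 mutant trap array, Socs2 1438470_at was lowest at 4.41 in 1 WT trap array, and Socs1 1450446_a_at was lowest at 3.77 in 1 mutant trap array. In muscle, Stat3 1426587_a_at was highest at 9.17 in 1 WT trap array and Lifr 1425107_a_at at 5.74 in 1 mutant PBS array.

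The effect of the mutation under PBS differed between kidney and muscle in the test of that difference for Socs3 at 4.63, Osmr at 1.88, Stat3 at 1.09 and Lifr at 0.45, as kidney minus muscle on the log2 scale. In the fit of all probe sets it also differed for Socs3 1456212_x_at at 4.53, Socs3 1416576_at at 3.08, Stat3 1460700_at at 1.20, Osmr 1418675_at at 1.00 and Lifr 1425107_a_at at -1.51, the last with the opposite sign to the brightest Lifr probe set.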

How the results depend on the processing

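Of 1626 values of the 7 genes recomputed under other settings, 1519 kept their direction and their side of the threshold, 59 changed sign without being called in either, 32 lost the call, 12 gained one and 4 were called with the opposite sign. The 4 were Lifr read as the mean of its probe sets: -0.61 in kidney under PBS, -0.54 in kidney under the trap, -0.36 for kidney minus muscle and 0.27 between WT kidney and muscle. Socs3, Osmr and Stat3 were called higher in mutant kidneys under every setting run, with Socs3 between 4.40 and 5.18 under PBS. The number of the 7 genes called between mutant and WT under PBS in muscle was 2, and became 1 with the actin covariate, 0 with the 18S covariate and 1 with only the groups compared. For trap against PBS in mutant muscle it was 2, and became 1 with the mean of probe sets and 0 with the actin covariate, the 18S covariate and only the groups compared. For the interaction in muscle it was 0, and 2 with array weights; between WT kidney and muscle it was 3, and 5 after quantile normalization. Leaving out 1 array at a time gave 3 to 5 in kidney under PBS, 1 to 2 in muscle under PBS, 0 to 3 for the trap in mutant muscle, 0 to 2 for the interaction in muscle, 3 to 4 for kidney minus muscle and 3 to 4 between WT tissues. The cause of these shifts was not tested. Socs1 was below the median level in the filter on dim genes and has no value there.

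Over all genes, counts also moved: from 559 with the 18S covariate to 3607 without mutant PBS replicate 2, beside 2840, for mutant against WT muscle under PBS; from 36 to 2140 under the same settings, beside 1125, for the trap in mutant muscle; from 3 to 569 under the same settings, beside 30, for the interaction in muscle; and from 115 with the 18S covariate to 770 without mutant PBS replicate 2, beside 427, for the trap in mutant kidney. For the trap in WT kidney the count was 156 and ran from 20 with only the groups compared to 580 with array weights; for the kidney interaction it was 246, from 96 without WT PBS replicate 1 to 643 with array weights; between genotypes under the trap in muscle it was 295, from 34 with the actin covariate to 996 with array weights; and for the trap in WT muscle it was 11, from 1 without WT PBS replicate 1 to 130 with array weights.

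Replicate numbers do not pair animals within a tissue. Deviations of same-numbered arrays correlated at -0.124 to 0.342 in kidney and -0.243 to 0.301 in muscle. With the replicate number as a block, 4 of the 7 genes were called in mutant PBS kidneys, the added one being Socs2 at 0.83 (adjusted p = 0.0357), and the block changed no other call of the 7 genes. Dim probe sets such as Socs1 in kidney limit what can be seen, as do the 3 WT PBS animals.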

Other observations

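Between trap and PBS in WT kidneys 0.877% of all genes were called and 0 of the 7 genes. Of the 30 listed STAT3 targets 3 were called there. Cebpd was 1.72 ± 0.24 higher on the log2 scale. Birc5, a regulator of cell division, was 1.26 ± 0.21 lower and the cyclin Ccnd1 0.75 ± 0.14 lower. The interaction of genotype and trap in kidney was -1.60 ± 0.32 for Cebpd (adjusted p = 0.0229) and 1.87 ± 0.29 for Birc5 (adjusted p = 0.00729), by limma.

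Of the growth hormone genes, the trap raised Ghr by 1.13 ± 0.16 in mutant kidneys (adjusted p = 0.00208), with an interaction of 1.19 ± 0.24 (adjusted p = 0.0239). Igf1 in WT kidneys fell by 1.31 ± 0.22 with the trap (adjusted p = 0.0141), and its interaction was 1.68 ± 0.30 (adjusted p = 0.0151). In mutant kidneys, where 2.4% of all genes were called with the trap, 3 of the 30 listed STAT3 targets were higher and 1 lower: the fibrinogen genes Fgg and Fga rose by 1.13 ± 0.28 and 1.09 ± 0.23, and the hypoxia factor Hif1a fell by 0.51 ± 0.12 (adjusted p = 0.0437). The interferon-induced chemokines Cxcl9 and Cxcl10 rose by 1.24 ± 0.31 (adjusted p = 0.0499) and 1.08 ± 0.22 (adjusted p = 0.0167), and Stat2 rose by 0.56 ± 0.14 (adjusted p = 0.0462). The 18S control read 12.43 to 13.14 in mutant trap kidneys, against 13.12 to 13.63 in mutant PBS kidneys. In WT kidneys it read 12.88 to 13.26 with the trap, against 13.28 to 13.33 with PBS. With 18S as a covariate 115 genes were called with the trap in mutant kidneys, beside 427. Whether the list genes named here keep their calls with that covariate was not tested.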
